A study of Mus musculus with 9 samples.

Results

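The genes described here are 32 components and transcriptional targets of the hypoxia-inducible factors (HIFs) outside the glycolytic pathway, picked out by symbol among the 53679 gene IDs of a count table from mouse CD8+ T cells. They comprise 3 HIF subunits, 5 oxygen sensors and pVHL, 6 targets acting at mitochondria, 7 targets of the secretory pathway, glycogen and collagen modification, 3 secreted factors and 8 targets in transcription, chromatin or signalling. All 32 had enough reads to be tested. Total RNA had been sequenced from 9 cultures of C57BL/6 CD8+ T cells after 3 days of activation. Of these, 3 were Tc0 cells without an agent, 3 were Tc0 cells given coenzyme A (CoA) and 3 were Tc22 cells without an agent. The extraction protocol names vehicle as the counterpart of CoA. In the field, Tc0 denotes cells activated with no polarising cytokine, and Tc22 denotes cells that make interleukin-22. CoA is the cofactor that carries acyl groups in metabolism. Mice 715, 725 and 728 each gave 1 culture of every kind, and a library is named by its group and mouse, so that CoA 725 is the CoA-treated Tc0 library of mouse 725. The sources used here do not give the ages and sexes of the mice, the cytokines used to obtain Tc22 cells, the dose of CoA or the oxygen in the incubator. The libraries are of bulk RNA, so fewer cells expressing a gene and less RNA of it per cell cannot be told apart.

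HIFs are heterodimers of an alpha subunit that is made all the time and a stable beta subunit, ARNT. When oxygen is plentiful, prolyl hydroxylases of the EGLN family modify the alpha subunit, pVHL binds the hydroxylated protein, and the proteasome destroys it, while HIF1AN hydroxylates an asparagine and blocks coactivator binding. When oxygen is short the alpha subunit persists, enters the nucleus and binds hypoxia response elements with the core RCGTG. In T cells HIF-1alpha also accumulates after antigen receptor stimulation and is known for its part in effector metabolism. Its control lies mostly in protein stability, which RNA counts do not measure. Several EGLN genes are themselves HIF targets, which forms a negative feedback loop.

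Library totals ran from 21841034 to 36254631 counts. The Tc0 library of mouse 728 stood apart from the other Tc0 libraries, with 2.0% of counts from mitochondrial genes against 3.97% and 3.33%, and 0.668% from histone genes against 0.140% and 0.188%. Markers of CD8 T cells were abundant: the 6 together summed to 1855 to 2334 CPM (counts scaled to the TMM-adjusted library size) in Tc0 cells, 1471 to 1870 CPM with CoA and 1779 to 2213 CPM in Tc22 cells. Of these 6, 4 were lower with CoA than in Tc0 cells. Of the 4 macrophage and monocyte markers tested, out of 6 listed, 2 were higher with CoA, and the list summed to 4.50 to 6.55 CPM in Tc0 cells, 5.05 to 14.0 CPM with CoA and 6.22 to 7.13 CPM in Tc22 cells. Of the 2 granulocyte and mast cell markers tested, out of 7 listed, 1 was higher with CoA. The whole list summed to 0.409 to 1.26 CPM in Tc0 cells and 1.71 to 3.65 CPM with CoA, with S100a9 at 0 in all 9 libraries. Of the other cell type markers, 1 of 4 dendritic cell and 1 of 4 CD4 T cell markers were higher with CoA, 1 of 2 gamma delta T cell markers was lower, the 1 B cell and the 1 natural killer cell marker tested were not called, and 0 of 4 erythroid markers had enough reads. Between Tc22 and CoA-treated cells, 4 of 6 CD8 T cell markers were higher, 1 macrophage and monocyte marker was higher and 3 of 4 lower, and both granulocyte and mast cell markers were lower. The 1 natural killer cell marker and 1 of 2 gamma delta T cell markers were also higher there, and 1 of 4 dendritic cell and 1 of 4 CD4 T cell markers lower. Between Tc22 and Tc0 cells, Cd4 was higher, and no other marker tested was called. The largest log2 fold change among the 4 CD4 T cell markers was 1.59 there. That list summed to only 8.67 to 14.7 CPM in Tc0 cells and 13.2 to 16.3 CPM in Tc22 cells. Of all genes tested, 12.5% were called higher and 12% lower with CoA. The shares were 16% and 16% between Tc22 and CoA-treated cells, and 2.48% and 1.21% between Tc22 and Tc0 cells. With so few markers tested per list, a single call does not show a shift in a cell type. The part of these cell types in the differences below was not tested.

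Per kilobase of exon, which allows levels of different genes to be set side by side, the members spanned a wide range. The most abundant over the 9 libraries were Mif, a cytokine gene, at a mean of 276 CPM per kb, Fam162a, which encodes a mitochondrial protein linked to hypoxic cell death, at 213, and Ero1l, the oxidase that drives disulphide bond formation in the endoplasmic reticulum, at 194. Bnip3, a receptor for the removal of mitochondria by autophagy, followed at 169, and Hif1a at 139 CPM per kb. At the other end, Epas1, which encodes HIF-2alpha, averaged 0.0921 CPM per kb, adrenomedullin (Adm) 0.374 and Plod1 0.516. Of the alpha subunits Hif1a and Epas1, Hif1a was the abundant one in all 3 groups. Among related genes, Egln3 (82.9 CPM per kb) stood above Egln1 (40.3) and Egln2 (2.95). P4ha1 (58.8) stood above P4ha2 (3.48), and Plod2 (17.0) above Plod1. Reads of Mif may be shared with its processed pseudogenes, so its level is uncertain.

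**Figure D1:**
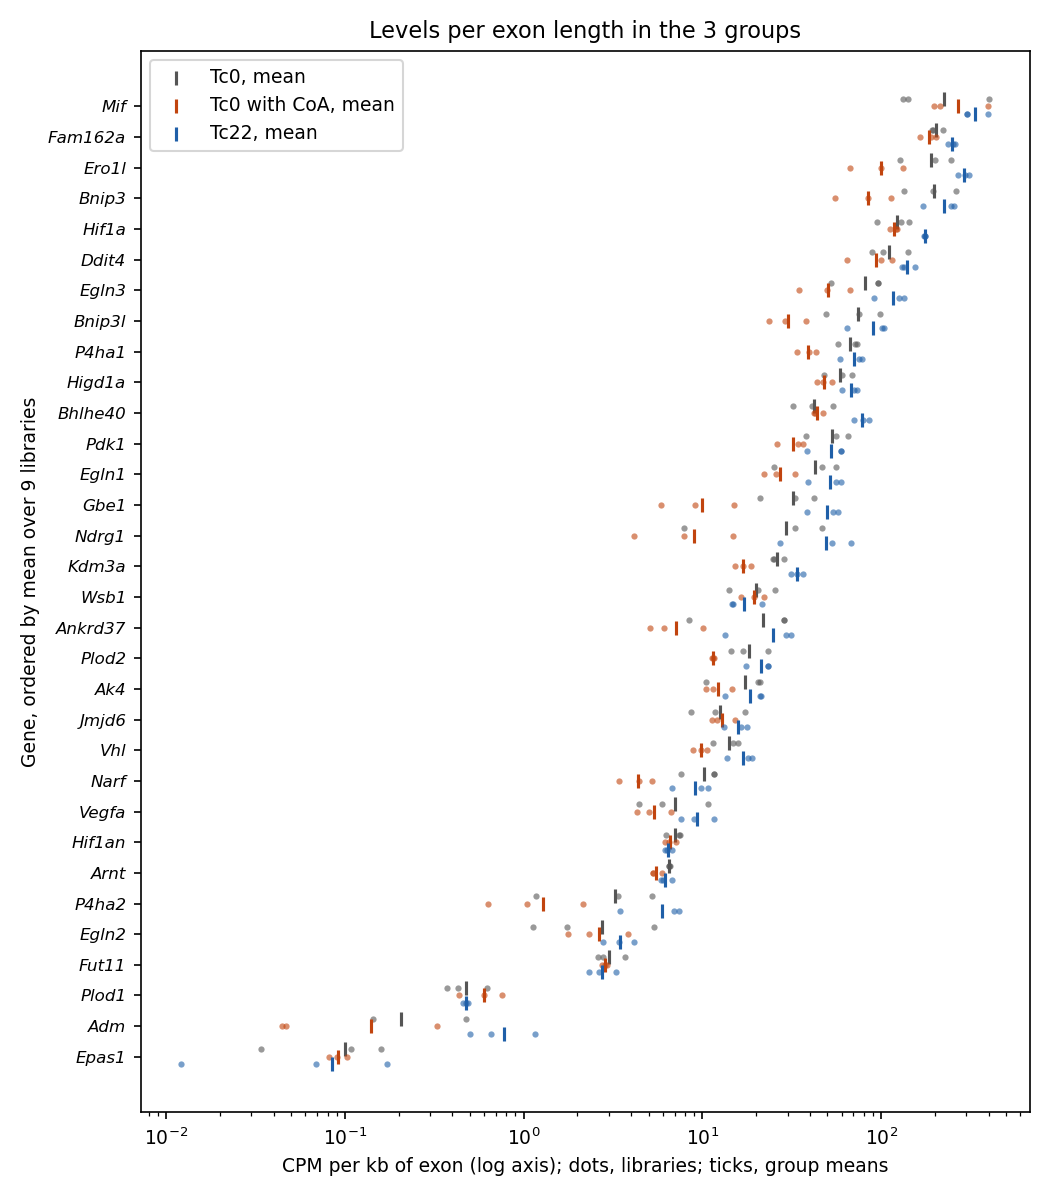
Levels of the 32 members in CPM per kilobase of exon, on a log axis, with 1 dot per library coloured by group and a tick at each group mean. The Tc0 library of mouse 715 held no Adm read and is not drawn for that gene; Mif, Fam162a and Ero1l sit at the high end and Epas1 at the low end in each group.

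Promoter windows of 250 bases before to 50 bases after a transcription start were available from RefSeq (GRCm38.p6) for 27 of the 32 members. The HIF core was searched as ACGTG and GCGTG on both strands. At least 1 core lay in the windows of 24 of the 27 (88.9%), against 46.7% of all 27025 genes with a window and 67.2% of the 10108 tested genes with one. The members were listed for their ties to HIF, so these shares are a description and not a test. The base composition of the windows was not matched. Single windows held ACGTG in 19.6% and GCGTG in 32.4% of 32851 cases. The palindrome CACGTG, an E-box that other factors also bind, contains ACGTG on both strands and was counted on each. The share with a core was 10 of 12 (83.3%) among members lower with CoA than in Tc0 cells and 14 of 15 (93.3%) among those not called there.

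The upstream parts of 5 windows are printed to show that range of core number, 5′ to 3′ on the strand of the gene, with matches to the core on either strand in capitals. Bnip3 (chr7:138909507-138909756, minus strand), P4ha1 (chr10:59323046-59323295, plus strand) and Ero1l (chr14:45318573-45318822, minus strand) were lower with CoA and carried 5, 3 and 3 matches. Gbe1 (chr16:70313699-70313948, plus strand), the glycogen branching enzyme gene, was lower with CoA as well and carried 0 matches in these 250 bases. Egln2 (chr7:27166803-27167052, minus strand) was called in no comparison and carried 4. No printed stretch overlaps an exon of a protein-coding transcript in GENCODE M21, although those of Bnip3 and Ero1l end inside the span annotated for the gene. The Ero1l stretch lies mostly inside that span, which reaches position 45318771, and its 3 matches all fall there. The 5 matches of Bnip3 lie before its gene span. A match is a description of letters and shows no binding, and the absence of one concerns this window only.
Bnip3: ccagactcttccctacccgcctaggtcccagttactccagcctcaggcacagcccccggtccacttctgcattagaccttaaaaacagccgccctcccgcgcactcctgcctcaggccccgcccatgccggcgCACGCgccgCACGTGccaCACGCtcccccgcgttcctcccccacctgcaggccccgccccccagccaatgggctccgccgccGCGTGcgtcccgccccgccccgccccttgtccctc
P4ha1: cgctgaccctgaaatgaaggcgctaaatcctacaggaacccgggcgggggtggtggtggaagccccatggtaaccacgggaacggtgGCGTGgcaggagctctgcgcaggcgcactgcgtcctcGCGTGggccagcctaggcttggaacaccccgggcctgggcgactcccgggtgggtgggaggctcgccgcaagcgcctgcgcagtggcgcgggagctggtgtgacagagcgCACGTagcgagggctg
Ero1l: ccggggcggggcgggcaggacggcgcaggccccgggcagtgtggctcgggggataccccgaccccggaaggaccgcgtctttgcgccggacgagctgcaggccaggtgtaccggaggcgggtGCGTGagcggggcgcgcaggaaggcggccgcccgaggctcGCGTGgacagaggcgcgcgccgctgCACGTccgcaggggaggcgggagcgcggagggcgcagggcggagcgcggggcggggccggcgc
Gbe1: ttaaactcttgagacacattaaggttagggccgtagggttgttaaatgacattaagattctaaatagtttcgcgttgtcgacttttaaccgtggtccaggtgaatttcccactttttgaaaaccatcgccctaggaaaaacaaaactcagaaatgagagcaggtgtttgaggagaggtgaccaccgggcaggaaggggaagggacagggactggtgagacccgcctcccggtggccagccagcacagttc
Egln2: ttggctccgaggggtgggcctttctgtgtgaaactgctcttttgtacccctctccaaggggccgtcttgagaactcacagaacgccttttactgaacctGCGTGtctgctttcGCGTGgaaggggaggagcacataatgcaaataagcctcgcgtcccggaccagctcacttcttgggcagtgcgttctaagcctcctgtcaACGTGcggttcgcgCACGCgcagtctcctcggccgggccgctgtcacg

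The libraries of a group did not sit at one level for these genes. Each member's log2 CPM was centred on its mean over the 9 libraries, and the median over the members was taken in each library. For mice 715, 725 and 728 it was -0.29, 0.28 and 0.35 in Tc0 cells, -0.43, -0.61 and -0.19 with CoA, and 0.12, 0.42 and 0.54 in Tc22 cells. All 3 CoA libraries lay below 0 and all 3 Tc22 libraries above it, while the Tc0 library of mouse 715 lay with the CoA libraries. That library was the lowest of its group for 26 of the 32 members, and the Tc22 library of the same mouse was the lowest of its group for 24. With CoA, mouse 725 was lowest for 22 and mouse 728 highest for 27. This order was counted for the members only, so it is not shown to be particular to them. Within a mouse, the median difference of CoA-treated from untreated Tc0 cells was -0.05 in mouse 715 (20 of 32 members lower), -0.82 in mouse 725 (27 lower) and -0.48 in mouse 728 (27 lower). The medians over all genes tested were 0.007, 0.0025 and -0.0096 in these mice. How many of all genes were lower in each mouse was not counted. The members are not replicates, and these counts describe 3 mice.

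**Figure D2:**
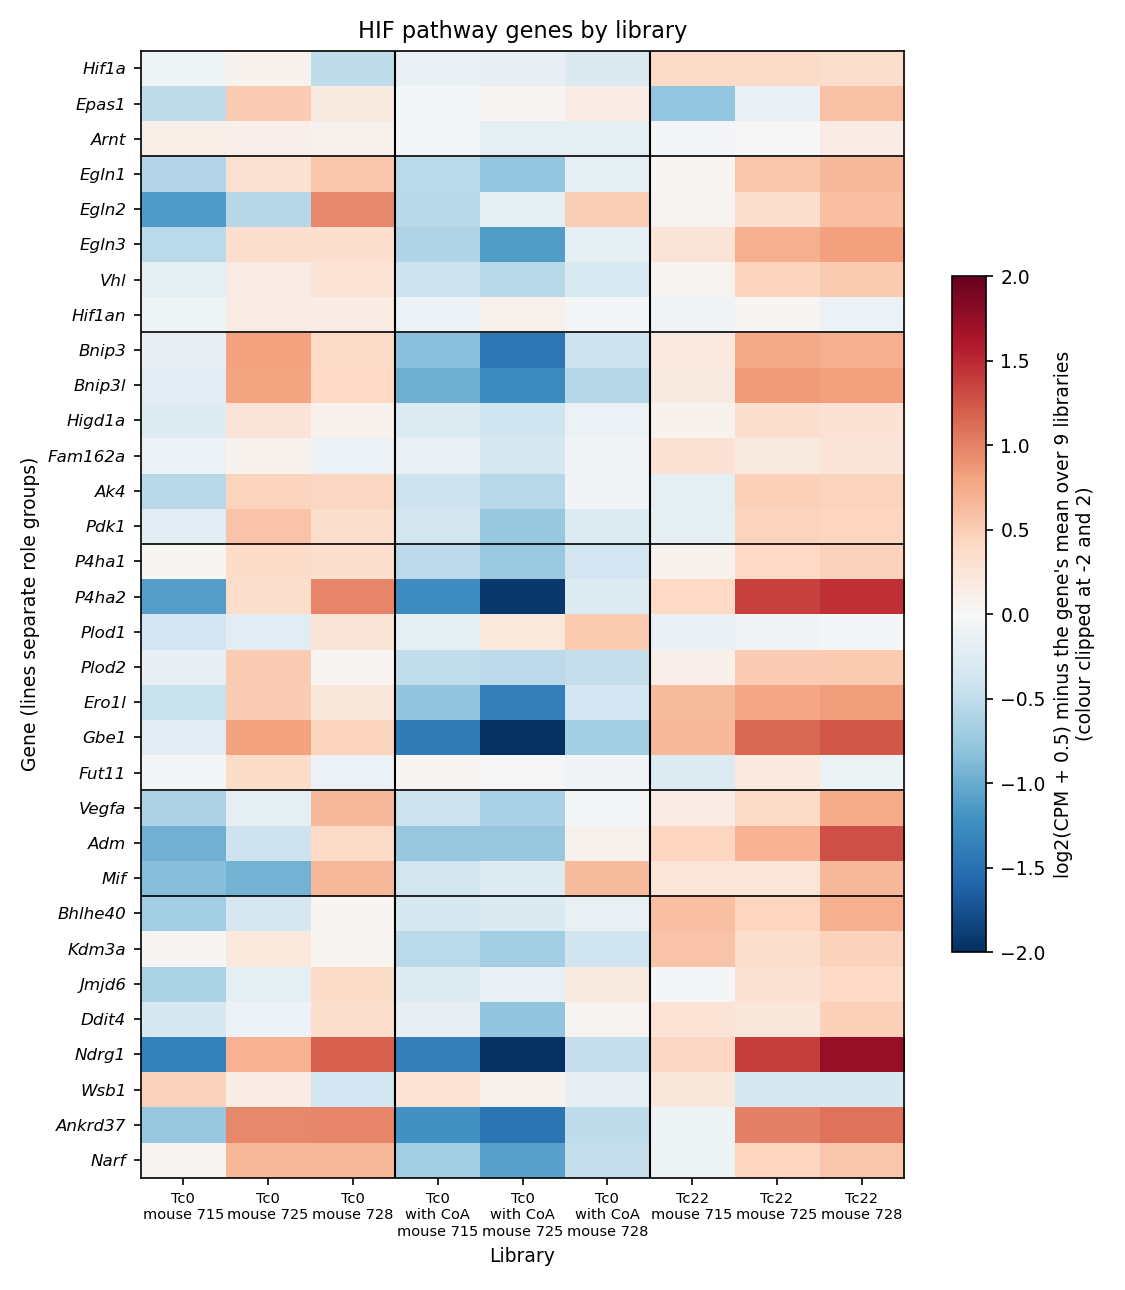
Heat map of log2(CPM + 0.5) of the 32 members (rows, by role) in the 9 libraries (columns, by group and mouse), each row centred on its own mean. The CoA libraries are mostly below their row means and the Tc22 libraries mostly above, with the Tc0 library of mouse 715 nearer to the CoA libraries than the other Tc0 libraries are.

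The comparison of CoA-treated with untreated Tc0 cells asks what the cofactor changed in cells activated alike. With mouse as a block, edgeR's quasi-likelihood F test at a Benjamini-Hochberg adjusted p of 0.05 called 15 of the 32 members lower (46.9%) and 0 higher. Over all 15348 genes tested, 12% were called lower and 12.5% higher. At an unadjusted p under 0.05, 18 members were lower, where 18.8% of all genes were, and 0 higher. DESeq2 called 14 of the 15 lower and 0 higher. The log2 fold change was below 0 for 26 members, as for 50.9% of all genes, and its median over the members was -0.47, against -0.01 over all genes tested. The level was lower in all 3 mice for 17 members (26.8% of all genes). For 10 the 3 CoA libraries lay wholly below the 3 Tc0 libraries (13.6% of all genes). The 15 were the oxygen sensors Egln1 and Egln3, Vhl, the mitochondrial genes Bnip3, Bnip3l and Pdk1, the secretory and collagen genes P4ha1, P4ha2, Plod2, Ero1l and Gbe1, and Kdm3a, Ndrg1, Ankrd37 and Narf. Without the mouse block 7 were called, and leaving out 1 library at a time gave 7 to 16, with 7 without the untreated or the CoA-treated Tc0 library of mouse 725 and 8 without the CoA library of mouse 728. The 6 called in all 15 alternative analyses were Bnip3, Bnip3l, P4ha1, Gbe1, Kdm3a and Narf.

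The comparison of Tc22 with untreated Tc0 cells called 2 members higher, Hif1a and Bhlhe40, and 0 lower, where 2.48% of all genes tested were higher and 1.21% lower. At an unadjusted p under 0.05, 14 members were higher, where 11.7% of all genes were, and 0 lower. DESeq2 called 4 higher and 0 lower. The median log2 fold change of the members was 0.29, against -0.01 over all genes tested, and it was above 0 for 25 members (49% of all genes). All 3 mice were higher for 21 members (19.1% of all genes), and for 6 the Tc22 libraries lay wholly above the Tc0 libraries (6.55% of all genes). The count of calls moved with single libraries, from 1 without the CoA library of mouse 728 or any of the Tc0 and Tc22 libraries of mice 715 and 725 to 6 without the CoA library of mouse 725 and 7 with Tc0 728 left out. It was 0 without the mouse block, 4 with the compared groups only and 9 with no low-count filter. Over all genes, 1555 were called higher with Tc0 728 left out, against 380 in the main fit.

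Between Tc22 cells and CoA-treated Tc0 cells the members differed most. Here 23 of 32 (71.9%) were higher in Tc22 cells and 0 lower, where 16% of all genes tested were higher and 16% lower. The unadjusted p was under 0.05 for 24 higher members, where 21.8% of all genes were, and 0 lower ones. DESeq2 called the same 23 higher and 0 lower. The median log2 fold change was 0.79, against 0.01 over all genes tested, and it was above 0 for 27 members (50.9% of all genes). All 3 mice were higher for 26 members (32.9% of all genes), and for 22 the Tc22 libraries lay wholly above the CoA libraries (20.2% of all genes). The 3 comparisons share libraries, so their values stand side by side and are not separate evidence. The largest differences were in Adm, Ndrg1, Gbe1 and P4ha2. In the same comparison 4 of 6 CD8 T cell markers were higher and 3 of 4 macrophage and monocyte markers lower, and their part was not tested. Leaving out 1 library at a time gave 18 to 24 calls, the fit without the mouse block 16, and 15 of the 23 were called in all 15 alternative analyses.

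**Figure D3:**
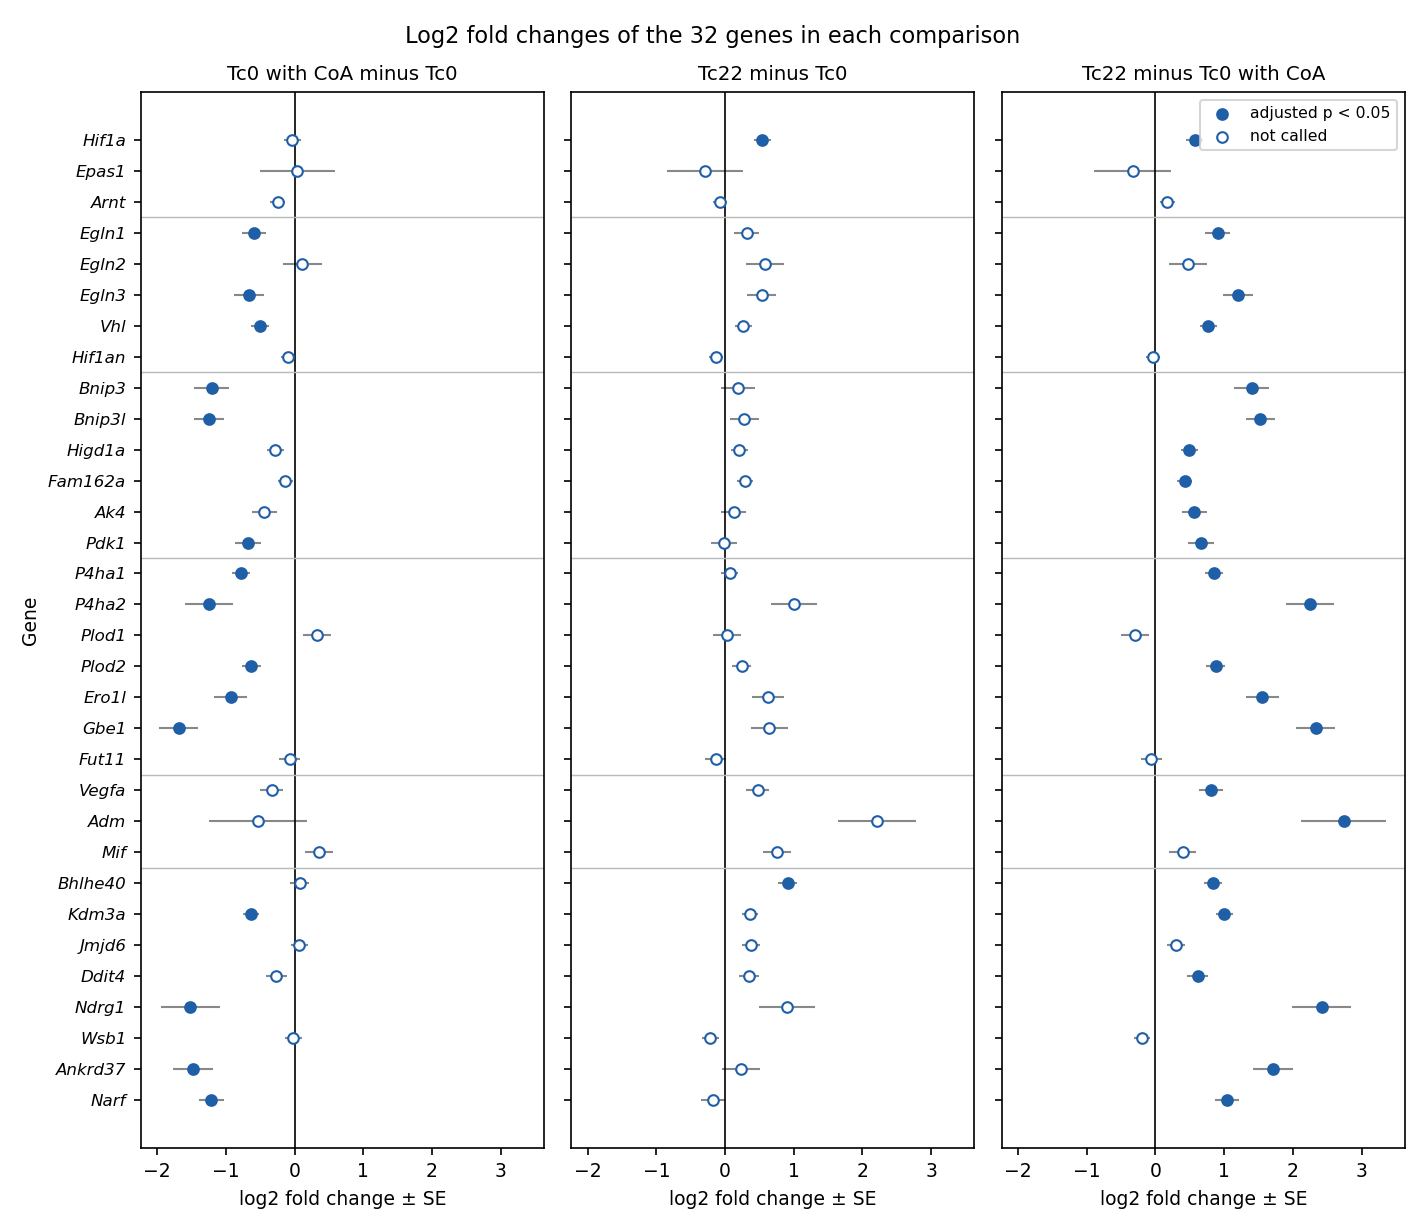
Log2 fold changes of the 32 members in the 3 comparisons, 1 panel each on a shared axis, with bars of 1 standard error and filled points where the adjusted p is under 0.05. Points lie left of 0 for 26 members in CoA-treated against untreated Tc0 cells and right of 0 for 27 in Tc22 against CoA-treated cells.

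Of the 3 HIF subunits, Hif1a rose in Tc22 cells, where 2.48% of all genes tested were called higher than in Tc0 cells. None of the 3 was called with CoA, where 12% of all genes were lower and 12.5% higher. Hif1a (ENSMUSG00000021109, chromosome 12, 73901375 to 73947530, plus strand; GRCm38) encodes the oxygen-labile alpha subunit. It stood at 757, 842 and 561 CPM in the Tc0 libraries, 719, 713 and 658 CPM in those with CoA and 1039, 1042 and 1026 CPM in the Tc22 libraries. Every Tc22 library was above all Tc0 and CoA libraries, while the Tc0 and CoA ranges overlapped. It was higher in Tc22 than in Tc0 cells (log2 fold change 0.54, SE 0.12, adjusted p = 0.0435), from 719.8 ± 144 CPM to 1035 ± 8.62 CPM (SD, n = 3 each), and higher in 3 of 3 mice. That call was lost with Tc0 715, Tc0 725, CoA 728, Tc22 715, Tc22 725 or Tc22 728 left out (adjusted p from 0.0714 to 0.165), without the mouse block (adjusted p = 0.220) and with the compared groups only (adjusted p = 0.0809). Against CoA-treated cells the difference was 0.58, SE 0.12, adjusted p = 0.00741, and with CoA against Tc0 it was -0.03, SE 0.12, adjusted p = 0.869. Arnt (ENSMUSG00000015522, chromosome 3, 95434388 to 95497240, plus strand) encodes the stable partner. It stood at 52.6, 52.4 and 51.8 CPM in Tc0, 47.8, 42.2 and 42.5 CPM with CoA and 47.0, 48.0 and 53.9 CPM in Tc22 cells. Its CoA libraries lay below all Tc0 libraries, but the difference did not pass the threshold (log2 fold change -0.24, SE 0.11, adjusted p = 0.130), nor did that between Tc22 and Tc0 (-0.07, SE 0.11, adjusted p = 0.721). Epas1 (ENSMUSG00000024140, chromosome 17, 86753700 to 86833410, plus strand) encodes the second alpha subunit. It was near the limit of counting in every library, at 0.189, 0.886 and 0.606 CPM in Tc0, 0.455, 0.506 and 0.577 CPM with CoA and 0.0680, 0.385 and 0.959 CPM in Tc22 cells. Its groups overlapped and no comparison was called.

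The oxygen sensors and pVHL, which limit HIF, were split. Egln1, Egln3 and Vhl fell with CoA, where 12% of all genes tested did. Egln2 and Hif1an did not pass the test in any comparison. Egln1 (ENSMUSG00000031987, chromosome 8, 124908587 to 124949324, minus strand) encodes the main prolyl hydroxylase in most tissues. It stood at 90.0, 168 and 199.7 CPM in the Tc0 libraries, 93.0, 79.7 and 119 CPM in those with CoA and 139, 201 and 214 CPM in the Tc22 libraries. Mice 725 and 728 were lower with CoA, while in mouse 715 the Tc0 library was as low as the CoA library, so the groups overlapped. It was lower with CoA (log2 fold change -0.59, SE 0.18, adjusted p = 0.0404) and higher in Tc22 than in CoA-treated cells (0.90, SE 0.18, adjusted p = 0.00555). The first call was lost with Tc0 725, Tc0 728, CoA 725, CoA 728, Tc22 715 or Tc22 725 left out (adjusted p from 0.0510 to 0.205), with no mouse block (adjusted p = 0.174) and with library size alone as scaling (adjusted p = 0.0520). The second was lost with no mouse block (adjusted p = 0.0573). Egln3 (ENSMUSG00000035105, chromosome 12, 54178981 to 54203860, minus strand) encodes a prolyl hydroxylase strongly induced by HIF in many cells. It stood at 139, 256 and 256 CPM in the Tc0 libraries, 133, 92.9 and 178 CPM in those with CoA and 242, 333 and 357 CPM in the Tc22 libraries. Again mouse 715 was low without CoA and changed little with it, and the groups overlapped. The change with CoA was -0.66, SE 0.21, adjusted p = 0.0483. The call was lost with Tc0 725, Tc0 728, CoA 725, CoA 728, Tc22 715, Tc22 725 or Tc22 728 left out (adjusted p from 0.0552 to 0.222), with no mouse block (adjusted p = 0.158) and with library size alone as scaling (adjusted p = 0.0585). Tc22 libraries lay wholly above CoA libraries (log2 fold change 1.2, SE 0.22, adjusted p = 0.00349). That call was kept in all 15 alternatives. Between Tc22 and Tc0 cells Egln3 was higher in 3 of 3 mice but not called (0.54, SE 0.21, adjusted p = 0.194). It passed there with CoA 725 left out (adjusted p = 0.0315), with the compared groups only (adjusted p = 0.0449) and with no low-count filter (adjusted p = 0.0322).

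Vhl (ENSMUSG00000033933, chromosome 6, 113623959 to 113631633, plus strand) encodes the substrate receptor of the ubiquitin ligase that marks HIF alpha. It stood at 34.4, 44.3 and 47.6 CPM in the Tc0 libraries, 29.5, 26.6 and 31.9 CPM in those with CoA and 41.2, 54 and 56.6 CPM in the Tc22 libraries. All CoA libraries lay below all Tc0 and all Tc22 libraries. It was lower with CoA (log2 fold change -0.51, SE 0.13, adjusted p = 0.0198) and higher in Tc22 than in CoA-treated cells (0.77, SE 0.13, adjusted p = 0.00260). The first call was lost with Tc0 725, CoA 725 or CoA 728 left out (adjusted p from 0.0997 to 0.124) and with no mouse block (adjusted p = 0.0865). Egln2 (ENSMUSG00000058709, chromosome 7, 27158658 to 27166802, minus strand) encodes the third prolyl hydroxylase. It stood at 3.15, 4.90 and 15.0 CPM in Tc0, 4.97, 6.51 and 10.7 CPM with CoA and 7.78, 9.6 and 11.7 CPM in Tc22 cells, with overlapping groups. Its Tc0 library of mouse 728 was 15.0 CPM against 3.15 and 4.90, and without that library the difference of Tc22 from Tc0 cells passed the threshold (adjusted p = 0.0183, against 0.264 with it). Hif1an (ENSMUSG00000036450, chromosome 19, 44562850 to 44576274, plus strand) encodes the asparaginyl hydroxylase. It was nearly level, at 41.4, 49.6 and 49.0 CPM in Tc0, 40.7, 47.0 and 43.0 CPM with CoA and 42.0, 44.7 and 40.7 CPM in Tc22 cells. Its log2 differences were -0.13 (SE 0.10) between Tc22 and Tc0 cells, -0.10 (SE 0.10) with CoA and -0.03 (SE 0.10) between Tc22 and CoA-treated cells.

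Of the 6 mitochondrial targets, 3 fell with CoA (Bnip3, Bnip3l and Pdk1), where 12% of all genes tested did. Between Tc22 and Tc0 cells 0 were called, where 2.48% of all genes were higher and 1.21% lower. All 6 were higher in Tc22 than in CoA-treated cells, where 16% of all genes were. Bnip3 (ENSMUSG00000078566, chromosome 7, 138890836 to 138909519, minus strand) encodes a receptor on the outer mitochondrial membrane for mitophagy. It stood at 304, 596 and 443 CPM in the Tc0 libraries, 191, 124 and 256 CPM in those with CoA and 390.5, 577 and 559 CPM in the Tc22 libraries. The highest CoA library was below the lowest Tc0 library. Its mean fell from 448 ± 146 CPM to 190.3 ± 65.7 CPM (SD, n = 3 each; log2 fold change -1.21, SE 0.26, adjusted p = 0.0108), and it was lower in 3 of 3 mice. Bnip3l (ENSMUSG00000022051, chromosome 14, 66985239 to 67008877, minus strand) encodes the related receptor also called NIX. It stood at 189, 379 and 289.8 CPM in the Tc0 libraries, 112, 90.6 and 147 CPM in those with CoA and 248, 398 and 389 CPM in the Tc22 libraries. The CoA libraries were again all below the Tc0 libraries, with a mean of 117 ± 28.7 CPM against 286 ± 95.2 CPM (log2 fold change -1.24, SE 0.21, adjusted p = 0.00514). Over the 9 left-out libraries the adjusted p of this change ranged from 0.00620 to 0.0468 for Bnip3 and from 0.00206 to 0.0234 for Bnip3l. Both were higher in Tc22 than in CoA-treated cells, by 1.40 (adjusted p = 0.00386) and 1.53 (adjusted p = 0.00130) on the log2 scale. Against Tc0 cells the Tc22 libraries overlapped, with differences of 0.19 (adjusted p = 0.686) and 0.28 (adjusted p = 0.445).

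Pdk1 (ENSMUSG00000006494, chromosome 2, 71873224 to 71903858, plus strand) encodes a kinase that holds back pyruvate dehydrogenase and so the making of acetyl-CoA from pyruvate. It stood at 295, 509 and 434 CPM in the Tc0 libraries, 266, 203 and 283 CPM in those with CoA and 298, 465 and 461 CPM in the Tc22 libraries. The CoA libraries lay below all Tc0 libraries, and the lowest Tc0 library, that of mouse 715, was close to them. It was lower with CoA (log2 fold change -0.68, SE 0.19, adjusted p = 0.0303) and higher in Tc22 than in CoA-treated cells (0.66, SE 0.19, adjusted p = 0.0267). The fall was lost with Tc0 725, Tc0 728, CoA 725 or CoA 728 left out (adjusted p from 0.0611 to 0.153) and with no mouse block (adjusted p = 0.0853). The difference from Tc22 cells was lost with CoA 725, CoA 728, Tc22 725 or Tc22 728 left out (adjusted p from 0.0744 to 0.116) and with no mouse block (adjusted p = 0.0759). Higd1a (ENSMUSG00000038412, chromosome 9, 121848563 to 121858362, minus strand) encodes a small inner membrane protein of the respiratory chain. It stood at 145, 209 and 184 CPM in Tc0, 144, 133 and 161 CPM with CoA and 184, 221 and 214 CPM in Tc22 cells. Tc22 libraries were above CoA libraries (log2 fold change 0.49, SE 0.13, adjusted p = 0.0154). The call was lost with CoA 725, CoA 728, Tc22 715 or Tc22 725 left out (adjusted p from 0.0539 to 0.0881) and with no mouse block (adjusted p = 0.0566).

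Fam162a (ENSMUSG00000003955, chromosome 16, 36043761 to 36071594, minus strand) stood at 166, 188 and 164 CPM in Tc0, 161, 139.7 and 173 CPM with CoA and 219, 202 and 213 CPM in Tc22 cells. All Tc22 libraries were above all other libraries, and the difference from CoA-treated cells was called (log2 fold change 0.42, SE 0.11, adjusted p = 0.0192) while that from Tc0 cells was not (0.29, SE 0.11, adjusted p = 0.190). The call was lost with CoA 725, Tc22 715 or Tc22 725 left out (adjusted p from 0.0698 to 0.115). Ak4 (ENSMUSG00000028527, chromosome 4, 101419277 to 101466995, plus strand) encodes a mitochondrial matrix adenylate kinase. It stood at 48.3, 97.8 and 95.2 CPM in Tc0, 53.5, 48.5 and 68.4 CPM with CoA and 62.5, 99.0 and 97.1 CPM in Tc22 cells. Its Tc22 and CoA libraries overlapped through those of mice 715 and 728, and the difference was 0.57, SE 0.18, adjusted p = 0.0381. It was lost with Tc0 728, CoA 725, CoA 728, Tc22 715, Tc22 725 or Tc22 728 left out (adjusted p from 0.0505 to 0.177) and with no mouse block (adjusted p = 0.173). With CoA, Ak4 was not called (-0.44, SE 0.18, adjusted p = 0.105), but it passed with Tc0 715 or CoA 715 left out (adjusted p from 0.0130 to 0.0317).

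The collagen modifying, secretory and glycogen genes held the largest single fall with CoA. Of the 7, 5 were lower with it, where 12% of all genes tested were. Between Tc22 and Tc0 cells 0 were called, where 2.48% of all genes were higher and 1.21% lower. The same 5 were higher in Tc22 than in CoA-treated cells, where 16% of all genes were. Gbe1 (ENSMUSG00000022707, chromosome 16, 70313949 to 70569716, plus strand) encodes the enzyme that adds branches to glycogen. It stood at 112, 226 and 176 CPM in the Tc0 libraries, 48.8, 31.2 and 80.4 CPM in those with CoA and 205, 288 and 306 CPM in the Tc22 libraries. The highest CoA library was below the lowest Tc0 library, which was that of mouse 715. Its mean was 171 ± 57.1 CPM in Tc0 cells and 53.5 ± 24.9 CPM with CoA (SD, n = 3 each; log2 fold change -1.69, SE 0.28, adjusted p = 0.00467), the largest fall among the members. Between Tc22 and CoA-treated cells it differed by 2.33, SE 0.29, adjusted p = 0.000769, and between Tc22 and Tc0 cells by 0.64, SE 0.27, adjusted p = 0.214, which was not called. That last difference passed with CoA 725 left out (adjusted p = 0.0121), with the compared groups only (adjusted p = 0.0272) and with no low-count filter (adjusted p = 0.0237).

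P4ha1 and P4ha2 encode catalytic subunits of collagen prolyl 4-hydroxylase, which, like the EGLN enzymes, uses oxygen and alpha-ketoglutarate. P4ha1 (ENSMUSG00000019916, chromosome 10, 59323296 to 59373304, plus strand) stood at 235, 299.7 and 292 CPM in the Tc0 libraries, 162, 139 and 178 CPM in those with CoA and 243, 307 and 319.6 CPM in the Tc22 libraries. The CoA libraries lay below all others, and its change was -0.78, SE 0.13, adjusted p = 0.00431, with adjusted p from 0.00168 to 0.0289 over the left-out libraries. P4ha2 (ENSMUSG00000018906, chromosome 11, 54100095 to 54131665, plus strand) stood at 7.33, 21 and 32.5 CPM in the Tc0 libraries, 6.53, 3.94 and 13.4 CPM in those with CoA and 21.7, 43.0 and 46.1 CPM in the Tc22 libraries. Its Tc0 libraries spread widely, from mouse 715 at the level of the CoA libraries to mouse 728, so the groups overlapped although all 3 mice were lower with CoA. Its change with CoA was -1.24, SE 0.35, adjusted p = 0.0291. It was lost with Tc0 725, Tc0 728, CoA 725 or CoA 728 left out (adjusted p from 0.0797 to 0.118) and with no mouse block (adjusted p = 0.159). Both were higher in Tc22 than in CoA-treated cells, P4ha1 by 0.85, SE 0.13, adjusted p = 0.00165, and P4ha2 by 2.25, SE 0.35, adjusted p = 0.00207. P4ha2 was not called between Tc22 and Tc0 cells (1.0, SE 0.33, adjusted p = 0.137), but passed with CoA 725 left out (adjusted p = 0.0196), with the compared groups only (adjusted p = 0.0313) and with no low-count filter (adjusted p = 0.00370).

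Ero1l (ENSMUSG00000021831, chromosome 14, 45283087 to 45318771, minus strand) stood at 669, 1294 and 1063 CPM in the Tc0 libraries, 527, 353 and 699 CPM in those with CoA and 1417, 1564 and 1633 CPM in the Tc22 libraries. All Tc22 libraries were above all Tc0 libraries, and the CoA library of mouse 728 overlapped with the Tc0 library of mouse 715. Its change with CoA was -0.93, SE 0.24, adjusted p = 0.0217. That call was lost with Tc0 725 or CoA 725 left out (adjusted p from 0.0743 to 0.0944), without the block and in DESeq2 (adjusted p = 0.0602 in each). It was higher in Tc22 than in CoA-treated cells (log2 fold change 1.56, SE 0.24, adjusted p = 0.00205). Its difference from Tc0 cells was not called (0.63, SE 0.24, adjusted p = 0.182) but passed with CoA 725 left out (adjusted p = 0.0351) and with no low-count filter (adjusted p = 0.0130). Plod2 (ENSMUSG00000032374, chromosome 9, 92542223 to 92608428, plus strand) encodes a lysyl hydroxylase that prepares collagen for cross-linking. It stood at 77.9, 125 and 90.4 CPM in the Tc0 libraries, 62.0, 60.7 and 63.0 CPM in those with CoA and 94.2, 125 and 126 CPM in the Tc22 libraries. The CoA libraries were nearly level with each other and below all others. The fall was -0.63, SE 0.14, adjusted p = 0.0120. It was lost with Tc0 725, CoA 725 or CoA 728 left out (adjusted p from 0.0594 to 0.0721). The difference between Tc22 and CoA-treated cells was 0.87, SE 0.14, adjusted p = 0.00217. Its relative Plod1 (chromosome 4) and the fucosyltransferase gene Fut11 (chromosome 14) were called in no comparison. Plod1 ranged over 2.52 to 5.15 CPM and Fut11 over 9.93 to 15.7 CPM.

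**Figure D4:**
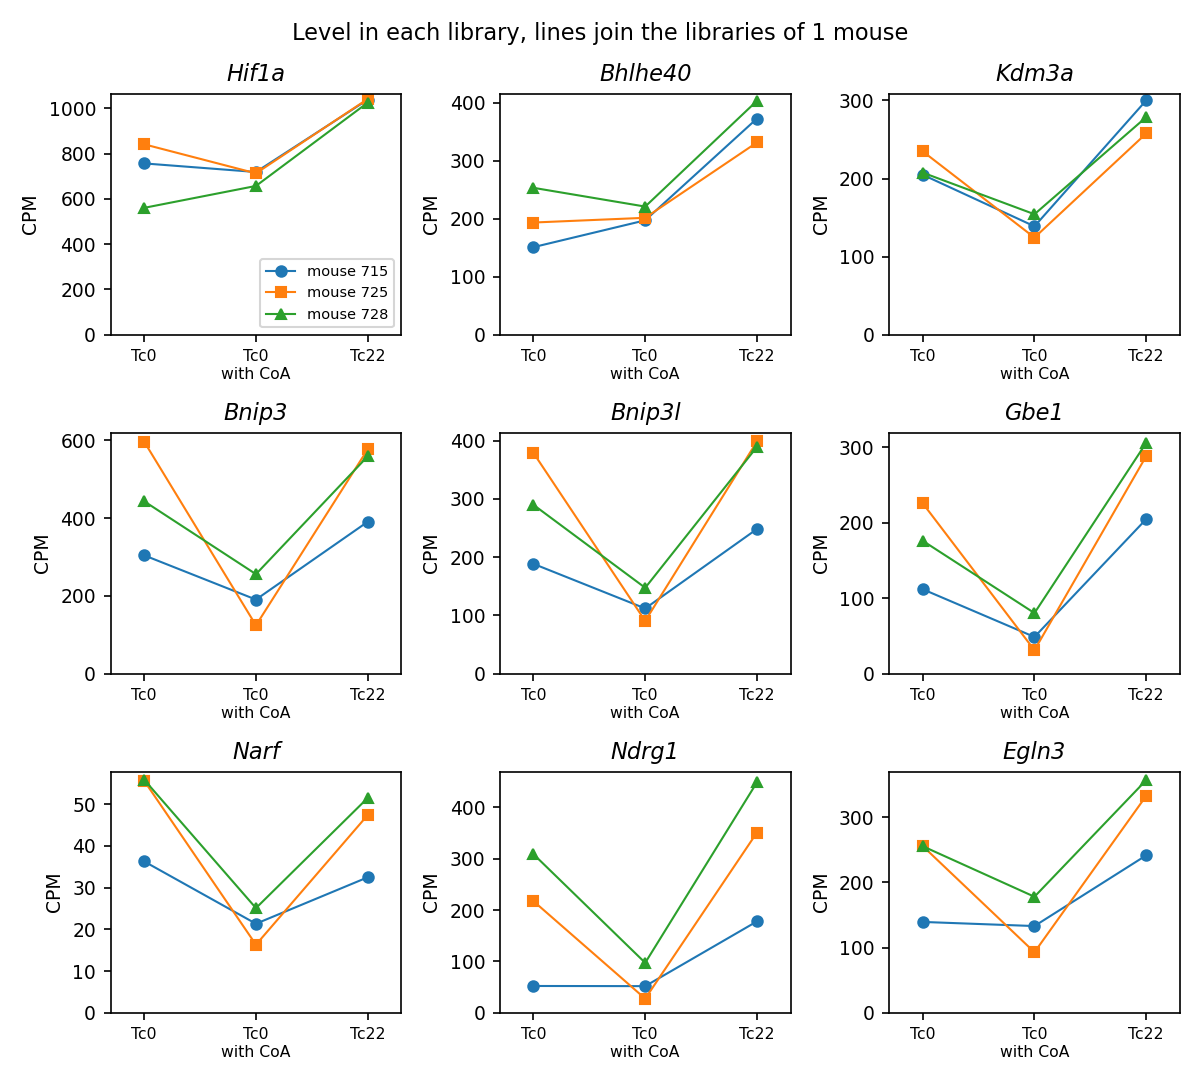
CPM, on linear axes from 0, of 9 members (Hif1a, Bhlhe40, Kdm3a, Bnip3, Bnip3l, Gbe1, Narf, Ndrg1 and Egln3) in Tc0, CoA-treated Tc0 and Tc22 cells, with the 3 libraries of each mouse joined by a line. Hif1a and Bhlhe40 are highest in the Tc22 cells of each mouse, and Bnip3, Bnip3l, Gbe1 and Narf are lowest in the CoA-treated cells of each mouse.

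Of the 3 secreted factors, 0 were called with CoA, where 12% of all genes tested were lower and 12.5% higher. Between Tc22 and Tc0 cells 0 were called as well, where 2.48% of all genes were higher and 1.21% lower. Vegfa and Adm were higher in Tc22 than in CoA-treated cells, where 16% of all genes were. Vegfa (ENSMUSG00000023951, chromosome 17, 46016993 to 46032369, minus strand) encodes the vascular growth factor, a classical HIF target. It stood at 18.9, 25.5 and 46.1 CPM in the Tc0 libraries, 21.6, 18.4 and 28.5 CPM in those with CoA and 32.4, 38.5 and 49.4 CPM in the Tc22 libraries. Tc22 libraries were above CoA libraries in each mouse and as groups (log2 fold change 0.81, SE 0.17, adjusted p = 0.00683). The call was lost with no mouse block (adjusted p = 0.113). Its difference from Tc0 cells (0.47, SE 0.17, adjusted p = 0.164) passed with Tc0 728 left out (adjusted p = 0.0296), which was the highest of its group. Adm (ENSMUSG00000030790, chromosome 7, 110627661 to 110629820, plus strand) encodes a vasodilating peptide. It was rare. Its counts were 0, 5 and 28 in Tc0, 2, 2 and 12 with CoA and 24, 36 and 59 in Tc22 cells. In CPM these were 0, 0.233 and 0.771 CPM in Tc0, 0.0759, 0.0723 and 0.533 CPM with CoA and 0.816, 1.07 and 1.89 CPM in Tc22 cells. Every Tc22 library was above every other library. The difference from CoA-treated cells was called (log2 fold change 2.74, SE 0.62, adjusted p = 0.00930) and lost with no mouse block (adjusted p = 0.115), and the fitted size rests on few counts. That from Tc0 cells was not called (2.21, SE 0.57, adjusted p = 0.0707) but passed in DESeq2 (adjusted p = 0.0160), with no low-count filter (adjusted p = 0.00149) and with Tc0 728 or Tc22 728 left out (adjusted p from 0.0393 to 0.0474).

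Mif (ENSMUSG00000033307, chromosome 10, 75859353 to 75860240, minus strand) stood at 105, 98.1 and 300.0 CPM in Tc0, 146, 159 and 296 CPM with CoA and 225, 224 and 296 CPM in Tc22 cells. In mouse 728 the 3 levels were nearly alike, and in mice 715 and 725 Tc22 cells were highest and Tc0 cells lowest. It was not called between Tc22 and Tc0 cells (log2 fold change 0.76, SE 0.20, adjusted p = 0.0778). The difference passed with Tc0 728 or Tc22 728 left out (adjusted p from 0.0110 to 0.0139), in DESeq2 (adjusted p = 0.00312) and with no low-count filter (adjusted p = 0.00119). Between Tc22 and CoA-treated cells its adjusted p was 0.154, and 0.0174 to 0.0450 with Tc0 728 or Tc22 728 left out. With Tc0 728 left out it was also higher with CoA (adjusted p = 0.0174, against 0.218 with it), the 1 member called so in any of the left-out fits.

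Among the 8 targets in transcription, chromatin and signalling, Bhlhe40 rose in Tc22 against Tc0 cells, where 2.48% of all genes tested did. With CoA 4 fell (Kdm3a, Ndrg1, Ankrd37 and Narf), where 12% of all genes did. Between Tc22 and CoA-treated cells 6 were higher, where 16% of all genes were. Bhlhe40 (ENSMUSG00000030103, chromosome 6, 108660629 to 108666925, plus strand) encodes a repressor that shapes cytokine expression in T cells. It stood at 151, 194 and 253 CPM in the Tc0 libraries, 197, 202 and 221 CPM in those with CoA and 373, 332 and 403 CPM in the Tc22 libraries. All Tc22 libraries were above all others, and the Tc0 and CoA ranges overlapped. Its mean rose from 199 ± 51.4 CPM in Tc0 to 369 ± 36.0 CPM in Tc22 cells (SD, n = 3 each; log2 fold change 0.91, SE 0.13, adjusted p = 0.00591), with adjusted p from 0.00459 to 0.0357 over the left-out libraries. Without the block the adjusted p was 0.0633. Against CoA-treated cells the difference was 0.84, SE 0.13, adjusted p = 0.00220, and CoA itself left it at 0.07, SE 0.13, adjusted p = 0.723.

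Kdm3a (ENSMUSG00000053470, chromosome 6, 71588972 to 71632990, minus strand) encodes a demethylase of lysines in histone H3 whose activity needs oxygen. It stood at 205, 235 and 208 CPM in the Tc0 libraries, 139, 124 and 154 CPM in those with CoA and 300.1, 258 and 279 CPM in the Tc22 libraries. The 3 groups did not overlap, with CoA lowest and Tc22 highest. The fall with CoA was -0.64, SE 0.12, adjusted p = 0.00663, with adjusted p from 0.00954 to 0.0433 over the left-out libraries. The difference between Tc22 and CoA-treated cells was 1.0, SE 0.12, adjusted p = 0.000664, the smallest p of the members in that comparison, and Tc22 against Tc0 was not called (0.37, SE 0.12, adjusted p = 0.130). Narf (ENSMUSG00000000056, chromosome 11, 121237253 to 121255856, plus strand) encodes a nuclear protein that binds prelamin A. It stood at 36.3, 55.6 and 55.8 CPM in the Tc0 libraries, 21.3, 16.3 and 25.1 CPM in those with CoA and 32.5, 47.4 and 51.5 CPM in the Tc22 libraries. The CoA libraries lay below all others, at a mean of 20.9 ± 4.40 CPM against 49.2 ± 11.2 CPM in Tc0 cells (log2 fold change -1.21, SE 0.18, adjusted p = 0.00316), the smallest p of the members with CoA. In Tc22 cells Narf was below Tc0 cells in 3 of 3 mice but not called (-0.17, SE 0.17, adjusted p = 0.593), the 1 member lower in every mouse there, and it was above CoA-treated cells (1.04, SE 0.18, adjusted p = 0.00294).

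Ndrg1 (ENSMUSG00000005125, chromosome 15, 66929318 to 66969640, minus strand) encodes a stress-responsive protein linked to T cell anergy. It stood at 52.2, 218 and 309 CPM in the Tc0 libraries, 51.9, 27.5 and 97.3 CPM in those with CoA and 178, 351 and 449 CPM in the Tc22 libraries. Mouse 715 had a low level without CoA that matched its level with it, and the other 2 mice fell, so the groups overlapped. The change was -1.52, SE 0.43, adjusted p = 0.0290. It was lost with Tc0 725, Tc0 728, CoA 725 or CoA 728 left out (adjusted p from 0.0791 to 0.119) and with no mouse block (adjusted p = 0.116). Tc22 libraries were above all CoA libraries (log2 fold change 2.42, SE 0.43, adjusted p = 0.00327) and not called against Tc0 (0.91, SE 0.40, adjusted p = 0.235). The difference from Tc0 passed with no low-count filter (adjusted p = 0.0162). Ankrd37 (ENSMUSG00000050914, chromosome 8, 45996902 to 46005707, minus strand) encodes an ankyrin repeat protein and HIF target. It stood at 13.0, 44.1 and 44.2 CPM in the Tc0 libraries, 9.34, 7.81 and 15.6 CPM in those with CoA and 20.7, 45.1 and 48.2 CPM in the Tc22 libraries. All 3 mice fell with CoA, although the CoA library of mouse 728 was above the Tc0 library of mouse 715. The fall was -1.48, SE 0.30, adjusted p = 0.00854, with adjusted p from 0.00150 to 0.0423 over the left-out libraries and 0.0634 without the block, and the difference between Tc22 and CoA-treated cells was 1.71, SE 0.29, adjusted p = 0.00289. Ankrd37 shares 57 exon bases with Ufsp2, at a mean of 70 CPM, and how the counting treated strand is unknown, so some of its reads may belong to that gene.

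Ddit4 (ENSMUSG00000020108, chromosome 10, 59949669 to 59951834, minus strand) encodes an inhibitor of mTORC1 signalling. It stood at 156, 180.2 and 249 CPM in Tc0, 174, 113 and 203 CPM with CoA and 235, 228 and 272 CPM in Tc22 cells. Tc22 libraries were above CoA libraries (log2 fold change 0.61, SE 0.15, adjusted p = 0.0139). That call was lost with CoA 725, CoA 728, Tc22 715 or Tc22 725 left out (adjusted p from 0.0509 to 0.0791) and with no mouse block (adjusted p = 0.114). Jmjd6, an oxygenase that acts on lysines, and Wsb1, a ubiquitin ligase receptor, were called in no comparison. Jmjd6 stood at 40.7, 55.1 and 81.4 CPM in Tc0, 52.9, 56.8 and 71.6 CPM with CoA and 62.1, 77.4 and 83.7 CPM in Tc22 cells and shares 172 exon bases with Mettl23, at a mean of 45 CPM. With Tc0 728 left out it passed in Tc22 cells against Tc0 cells (adjusted p = 0.0208) and against CoA-treated cells (adjusted p = 0.0319, and 0.0325 with the compared groups only). Wsb1 stood at 101, 81.5 and 55.8 CPM in Tc0, 88.6, 77.0 and 65.6 CPM with CoA and 86.2, 58.8 and 58.4 CPM in Tc22 cells. It was lower in Tc22 than in CoA-treated cells in 3 of 3 mice, with overlapping groups (log2 fold change -0.20, SE 0.12, adjusted p = 0.244).

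**Figure D5:**
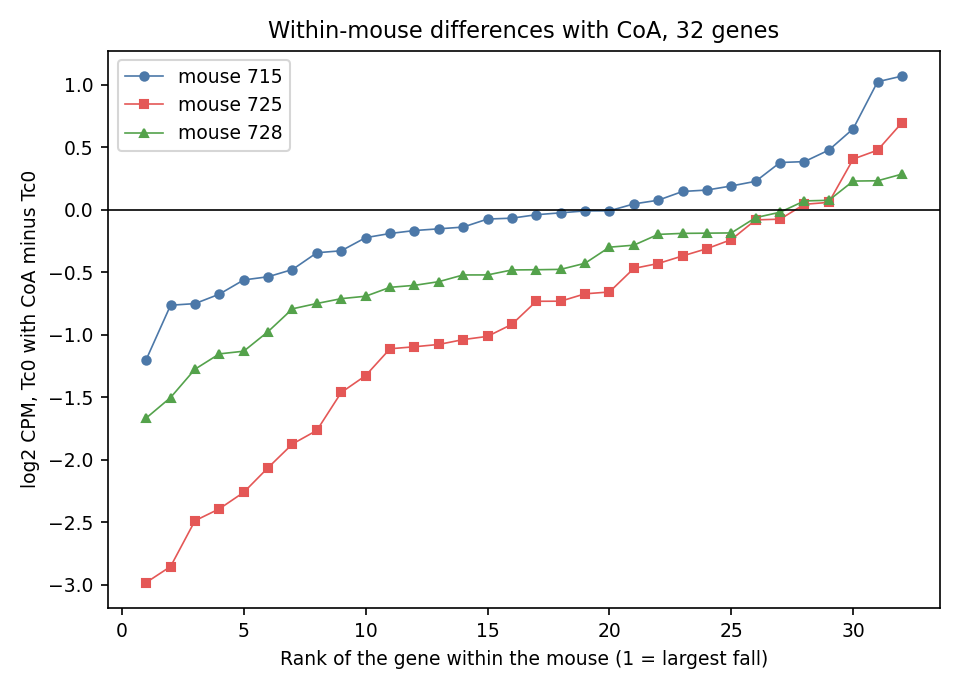
Log2 difference of CoA-treated from untreated Tc0 cells within each mouse for the 32 members, with the genes ranked within each mouse from the largest fall and 1 marker per gene. Mice 725 and 728 lie below 0 for 27 members each, and mouse 715 lies near 0 for many, with a median of -0.05 against -0.82 and -0.48. The medians over all genes tested were 0.007, 0.0025 and -0.0096 in mice 715, 725 and 728.

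Other genes of the HIF pathway were read from 3 lists. Of 14 further components of the HIF machinery, CoA raised 1, Eloc (0.47 on the log2 scale, adjusted p = 0.0283), which encodes an elongin of the pVHL ligase, and lowered 1, Cited2 (-0.81, adjusted p = 0.00943), a HIF target that competes with HIF-1alpha for its coactivators. Each is 7.14% of the list, where 12.5% of all genes tested were higher and 12% lower. The Eloc call was lost with Tc0 725, Tc0 728, CoA 725 or CoA 728 left out (adjusted p from 0.0657 to 0.144) and with no mouse block (adjusted p = 0.178). The Cited2 call was lost with CoA 725 left out (adjusted p = 0.0510). Between Tc22 and Tc0 cells 0 of 14 were called (2 higher and 0 lower at an unadjusted p under 0.05), with Arnt2 (2.46, adjusted p = 0.0812) and Os9 (0.41, adjusted p = 0.203) the lowest in p. Of all genes tested, 2.48% were called higher and 1.21% lower there, and 11.7% were higher at an unadjusted p under 0.05. Arnt2 rests on few reads, with 1, 6 and 1 counts in the Tc0 and 6, 29 and 16 in the Tc22 libraries, and it passed with no low-count filter (adjusted p = 0.0160). Os9 passed with Tc0 728 left out (adjusted p = 0.0276), where 3 of the 14 and 1555 of all genes were called higher. Between Tc22 and CoA-treated cells 3 were higher (21.4%) and 2 lower (14.3%), where 16% of all genes tested were higher and 16% lower. Cited2 (0.80, adjusted p = 0.00679) and Hif3a (0.71, adjusted p = 0.0230) were higher, and Eloc (-0.63, adjusted p = 0.00654) and the scaffold gene Cul2 (-0.42, adjusted p = 0.0281) lower. Hif3a was lost in 5 of the 9 left-out fits, Cul2 in 4, and Eloc and Cited2 in 1 each, that without the Tc22 library of mouse 725. The left-out fits gave 1 to 5 higher and 0 to 2 lower, with 5 higher without Tc0 728, 1 higher and 1 lower without CoA 725, CoA 728 or Tc22 715, and 1 and 0 without Tc22 725. With no mouse block 1 was higher and 0 lower.

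Of the 20 glycolytic HIF targets, 7 fell (35%) and 1 rose (5%) with CoA, where 12% of all genes tested fell and 12.5% rose. Their median log2 fold change was -0.27. The 7 falls became 2 with Tc0 725 or CoA 728 left out, 3 without CoA 725, 4 without Tc0 728, and 2 with no mouse block. Those with the smallest p were Pgk1 (-0.71, adjusted p = 0.00590), Aldoc (-2.21, adjusted p = 0.00768) and Gpi1 (-0.75, adjusted p = 0.0138), enzymes of the pathway itself, and Hk2 (0.63, adjusted p = 0.00985), the hexokinase that moved up. Gpi1 was lost with Tc0 725, CoA 725 or CoA 728 left out (adjusted p from 0.0629 to 0.0733) and with no mouse block (adjusted p = 0.183). Hk2 was lost with Tc0 725 or CoA 725 left out (adjusted p from 0.0551 to 0.0647) and with no mouse block (adjusted p = 0.118). Between Tc22 and Tc0 cells 1 of 20 was higher (5%, against 2.48% of all genes tested), Hk1 (0.58, adjusted p = 0.0428). The call was lost in 5 of the 9 left-out fits and with no mouse block (adjusted p = 0.511), and the median was 0.52. The count was 13 with Tc0 728 left out, 6 without Tc22 728, 3 without CoA 725, 2 without CoA 715 and 0 in the other left-out fits, and it was 8 in DESeq2, 11 with no low-count filter, 2 with the compared groups only and 0 with library size alone. Without Tc0 728 the calls of higher genes over the whole table also grew, from 380 to 1555. Tc22 cells were above CoA-treated cells for 17 of 20 (85%, against 16% of all genes tested), among them Pgk1 (0.95, adjusted p = 0.00109), Aldoa (1.14, adjusted p = 0.00171), Gpi1 (1.11, adjusted p = 0.00205) and Aldoc (2.76, adjusted p = 0.00209). The 17 became 9 with Tc22 725 left out, 10 without CoA 725 and 11 without CoA 728. With no mouse block 5 were called, and Aldoa (adjusted p = 0.0760) and Gpi1 (adjusted p = 0.0733) were among those lost.

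Of 22 further HIF targets, 21 were tested (Lox was not). With CoA, 9 fell (42.9%) and 4 rose (19%), where 12% of all genes tested fell and 12.5% rose. The falls numbered 4 with Tc0 725 left out and 4 with no mouse block. The rises numbered 2 with Tc0 725, Tc0 728 or CoA 728 left out and 2 with no mouse block. The rises with the smallest p were Rbpj (1.02, adjusted p = 0.00195), the DNA-binding partner of Notch, and Tfrc (1.04, adjusted p = 0.00263), the transferrin receptor. The falls with the smallest p were Sap30 (-0.84, adjusted p = 0.00509), a subunit of a histone deacetylase complex, and Tmem45a (-2.73, adjusted p = 0.00610). This list held calls in both directions, where the 32 members held 15 falls and 0 rises, and the lists were not tested against each other. Between Tc22 and Tc0 cells 2 were higher (9.52%, against 2.48% of all genes tested), Nrn1 (0.98, adjusted p = 0.0111) and Mxi1 (0.48, adjusted p = 0.0333). Nrn1 was lost with Tc0 715 or Tc22 725 left out (adjusted p from 0.0505 to 0.0802) and with no mouse block (adjusted p = 0.0668), and Mxi1 in 6 of the 9 left-out fits and with no mouse block (adjusted p = 0.467). The count was 4 with Tc0 728 or CoA 725 left out, 0 without Tc0 715 or Tc22 725, 1 without Tc0 725, CoA 728, Tc22 715 or Tc22 728, and 6 with no low-count filter. Between Tc22 and CoA-treated cells 13 were higher (61.9%) and 3 lower (14.3%), where 16% of all genes tested were higher and 16% lower. Tfrc (-1.29, adjusted p = 0.000547) was lower and Selenbp1 (3.42, adjusted p = 0.00129), Sap30 (0.99, adjusted p = 0.00154) and Mxi1 (0.70, adjusted p = 0.00166) were higher. Left-out fits gave 11 to 16 higher and 3 lower throughout.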

How the data were processed

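Total RNA depleted of ribosomal RNA was made into TruSeq Stranded Total RNA libraries, per the labels' protocols. The authors deposited whole-number gene counts for the 9 libraries, as 1 table and again as single files that held identical values. The submitters' processing notes list GRCm38 and mm10 as builds and STAR 2.5.2 and RSEM 1.3.0 as tools, without role. The annotation and strand setting were not given in the sources used here. Since the counts are whole, RSEM's estimates may have been rounded before deposit. Overlapping genes and near-identical copies may therefore share reads. The 114 IDs with no symbol held 0.0226% of counts.

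Groups and mice came from the sample titles. The series' design text ties all populations to each mouse, so mouse was a block. Same-mouse libraries deviated together from their group means, with correlations of 0.0699 to 0.617 (mean 0.360, 9 pairs). Pairs that differed in both mouse and group ran from -0.527 to 0.228, so the ranges overlapped. The pairing was weak for CoA 725, at 0.179 with Tc0 725 and 0.0699 with Tc22 725, against 0.228 with Tc0 715. After TMM scaling and filterByExpr by group, 15348 genes were fitted in edgeR 4.0.16 (quasi-likelihood F test, R 4.3.3), with terms for group and mouse over the 9 libraries and 4 residual degrees of freedom. The common biological coefficient of variation came to 0.158. The Benjamini-Hochberg adjustment covered every gene fitted, and the threshold was 0.05. Standard errors were taken as the absolute log2 fold change over the square root of F. CPM use TMM-scaled library sizes, and CPM per kb the exon union of GENCODE M21, which also gave positions. The fit was tested on simulated counts.

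Members and lists were chosen with earlier results of these data known. Members called in at least 1 comparison, HIF subunits and oxygen sensors are given in every library. Up to 4 genes per list and comparison with the smallest p are named. Values of Jmjd6, Mif and Wsb1 were added after they were seen.

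Alternatives were no mouse block, DESeq2 1.42.0, its size factors in edgeR, library size alone, no low-count filter, the compared groups only and each library left out.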

Additional observations from a re-analysis of the deposited data

How the results depend on the processing

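Each of the 3 comparisons was recomputed under 15 alternatives, and no direction of a called value reversed in any of them. With the mouse block left out, as if libraries of the same number were unpaired, the members higher in Tc22 than in Tc0 cells went from 2 to 0, and all genes from 380 higher and 185 lower to 87 and 33. With CoA against Tc0 the members lower went from 15 to 7, and all genes from 1915 higher and 1848 lower to 800 and 662. Between Tc22 and CoA-treated cells all genes went from 2456 and 2457 to 1017 and 1080, and members higher from 23 to 16. For Tc22 against Tc0, DESeq2 called 4 members and 621 and 332 genes, no low-count filter gave 9 members and 831 and 444 genes, and the compared groups only gave 4 members. The cause of these shifts was not tested.

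Leaving out 1 library at a time, Tc22 against Tc0 gave 1 to 7 members higher and 0 to 0 lower, 148 to 1555 genes higher and 53 to 1114 lower, and a members' median of 0.18 to 0.44. CoA against Tc0 gave 0 to 1 members higher and 7 to 16 lower, 656 to 2360 genes higher and 504 to 1996 lower, and a median of -0.61 to -0.24. Tc22 against CoA-treated cells gave 18 to 24 members higher and 0 to 0 lower, 1148 to 2935 genes higher and 1037 to 2978 lower, and a median of 0.67 to 0.93.

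With 3 mice and 4 residual degrees of freedom, a member that missed the threshold is not shown to be level. Adm, Epas1 and Arnt2 rest on few counts. Adm was not tested with CoA against Tc0 when only those groups were used.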
